A study of Homo sapiens with 4 samples.

Results

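The 52 human genes described here bear the symbols of translation initiation factors and of the 4E-binding proteins. They are the rows whose symbol begins with EIF and a digit from 1 to 6, without the eIF2 kinases, pseudogenes and read-through or antisense rows, among 61806 genes in the deposited table. Membership was set by name and not by any measured value. The name alone does not show a role in initiation, and eIF5A, for example, relieves stalled ribosomes. EIF1AY, on the Y chromosome, is counted as a member and no value is given for it, which leaves 51 genes with values. EIF4E1B had 0 counts in all 4 libraries and EIF4EBP3 had 3, 3, 1 and 3 counts, too few for a test. EIF4E3 could be tested in 1 of the 2 lines, so that 49 genes were tested in MDA-MB-231 cells, and 48 in MDA-MB-435 cells and in both.

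Initiation factors bring the initiator tRNA, the small ribosomal subunit and the capped end of an mRNA together, select the start codon and let the large subunit join. eIF2 delivers the initiator tRNA and is recharged with GTP by eIF2B, eIF3 is the large scaffold on the small subunit, and the eIF4 factors bind the cap and unwind the mRNA. The 4E-binding proteins hold eIF4E away from eIF4G until mTORC1 phosphorylates them, and kinases that phosphorylate eIF2 slow initiation under stress.

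CPYPP is a small molecule known as an inhibitor of the interaction of DOCK2 with Rac1. The study used it to induce paraptosis, a vacuolating form of cell death, and examined 4E-binding protein 1 as a read-out of cap-dependent translation. RNA with a poly(A) tail was sequenced from wild-type cells of a breast cancer line, MDA-MB-231, and of a melanoma line, MDA-MB-435, either as a control or after CPYPP at 10 µM for 6 h. Each of the 4 conditions is 1 library of 1 established line, so the spread between cultures is unknown. A difference between 2 libraries was tested on their reads with edgeR's binomial test and therefore compares libraries rather than conditions. Intervals of fold changes and of ratios between genes are 95% exact binomial (Clopper-Pearson) intervals. Those of differences between the lines in log2 fold change, and the bars on CPM, are 95% normal approximations. All of them cover counting error only. Since the RNA is bulk, a large change in some cells and a small change in all cells cannot be told apart.

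The libraries held between 17196385 and 22663954 counts, and the control library was the deeper one in each line. The initiation factor genes took 1.17% and 1.18% of the counts in control and CPYPP-treated breast cancer cells and 1.29% and 1.38% in their melanoma counterparts. SOX10, a melanocyte transcription factor, had 3031 and 707 counts in the melanoma line and at most 1 count in the breast cancer line. DCT, an enzyme of melanin synthesis, had 658 and 464 counts in the melanoma line. The other melanocyte markers did not follow the label, since TYR, MLANA and PMEL had between 2 and 14 counts in the MDA-MB-435 libraries and MITF had 1405 counts in MDA-MB-435 control cells beside 1585 in the MDA-MB-231 control. Counts were scaled to CPM, the usual counts per library size, with TMM factors.

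Which initiation factor transcripts differed after CPYPP was examined first. EIF5 showed the largest rise in both lines and was the only tested member past a fold change of 2, which it passed in MDA-MB-435 cells. EIF1 rose in both lines, and no member fell by more than 1.5-fold in either. With an adjusted p under 0.05 and a fold over 2, 0 of 49 members were higher and 0 lower in the breast cancer line, beside 3.94% and 3.31% of all genes tested. In the melanoma line the same limits gave 1 higher and 0 lower of 48, beside 2.87% and 7.19% of all genes. With a fold over 1.5, MDA-MB-231 gave 1 higher member (EIF5) and 0 lower, against backgrounds of 7.76% and 7.40%. MDA-MB-435 gave 3 higher (EIF5, EIF1 and EIF3CL) and 0 lower, against 7.01% and 12.7%. The 3 higher members are 6.25% of those tested, which is near the background.

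Most members are abundant, so that small differences also passed the test on reads. Without a limit on the fold, 14 members were higher, 11 lower and 24 did not pass in the breast cancer line, beside backgrounds of 21.8% and 23.9%. In the melanoma line, 30 members were higher, 2 lower and 16 did not pass, beside 23.7% and 27.0% of all genes. These counts rest on counting error alone and on the scaling. With library totals in place of TMM, they became 20 higher and 13 lower in the melanoma line, and 12 higher with 16 lower in the breast cancer line. Of the 4180 genes with at least 1000 counts in both controls, 34.3% were higher in the breast cancer line and 46.7% in the melanoma line. The 37 members with such counts gave 32.4% and 62.2% by TMM. The median log2 fold change of the members was 0.01 in the breast cancer line, with a range from -0.49 (EIF4A2) to 0.65 (EIF5). The median in the melanoma line was 0.16, with a range from -0.18 (EIF2B1) to 1.13 (EIF5).

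**Figure D1:**
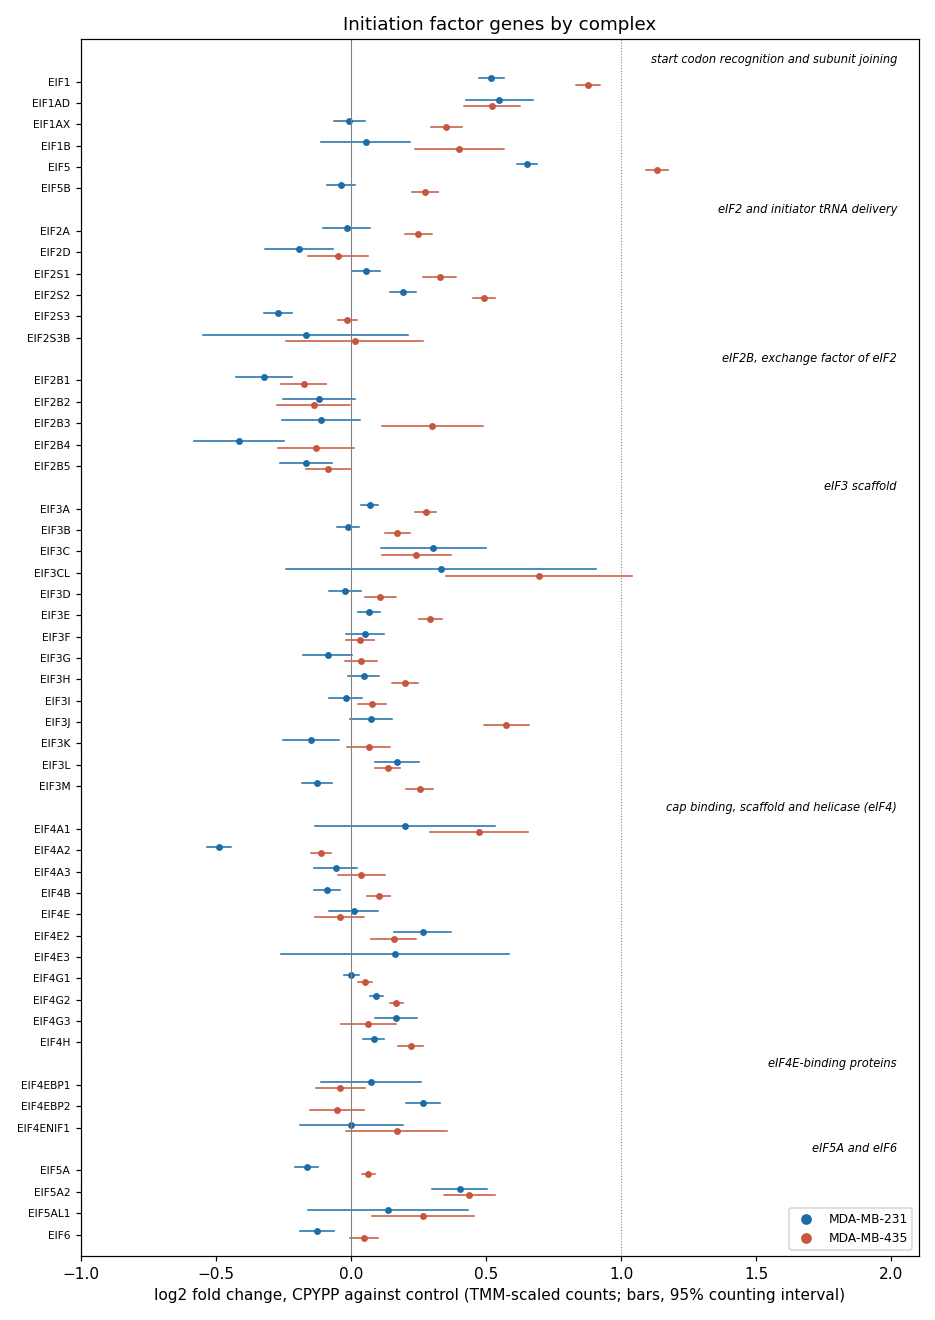
Log2 fold change of each initiation factor gene after CPYPP, grouped by complex, for MDA-MB-231 (blue) and MDA-MB-435 (red), with 1 library per condition and bars for the 95% counting interval. EIF5 lies farthest to the right in both lines, at 0.65 and 1.13, and most red points lie to the right of their blue partners.

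The group of genes for scanning and subunit joining gave the largest median of any group, with 0.29 in the breast cancer line and 0.46 in the melanoma line. It counts EIF1AD, which has an eIF1A-like domain and whose part in scanning was not tested. In the breast cancer line EIF1B at 0.05 and EIF1 at 0.52 lie on either side of the median. The rank of the group there therefore depends on this membership. All 6 genes of the group were higher in the melanoma line and 3 of 6 in the breast cancer line, at any fold, and none was lower. With library totals for scaling the counts of higher genes were the same and 1 gene was lower in the breast cancer line. At any fold, 23.7% of all genes were higher in the melanoma line and 21.8% in the breast cancer line. Among genes with at least 1000 counts in both controls these shares were 46.7% and 34.3%. EIF5 (chr14:103333544-103345025), the GTPase-activating protein of eIF2, had 11189 counts in MDA-MB-231 control and 13173 in CPYPP cells, or 501 and 787 CPM. Melanoma cells had 7627 and 13422 counts of EIF5, or 321 and 702 CPM. Both CPYPP libraries lay above both controls. The fold change was 1.57 (1.53 to 1.61) in the breast cancer line and 2.19 (2.13 to 2.25) in the melanoma line.

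EIF1 (chr17:41688885-41692668), which guards the fidelity of start codon choice, had 333 CPM in MDA-MB-231 control and 477 in CPYPP cells. The melanoma libraries had 294 and 539 CPM. Its levels also did not overlap between controls and CPYPP libraries, with a fold change of 1.43 (1.39 to 1.48) in the breast cancer line and 1.83 (1.78 to 1.89) in the melanoma line. EIF1AD (chr11:65996545-66002176), a protein with an eIF1A-like domain, rose from 44.6 to 65.2 CPM in the breast cancer line and from 60.5 to 86.9 CPM in the melanoma line. The fold changes of EIF1AD, 1.46 (1.34 to 1.60) and 1.44 (1.34 to 1.54), differed by less than counting error.

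The other members of the group moved in 1 line. EIF1AX, the scanning partner of eIF1, had 263 and 262 CPM in the breast cancer line and 207 and 264 CPM in the melanoma line, a log2 fold change of -0.01 against 0.35. EIF5B, the GTPase of subunit joining, gave -0.04 and 0.27, and EIF1B, a paralogue of EIF1, gave 0.05 and 0.40. The line difference in these log2 fold changes was 0.36 (0.28 to 0.44) for EIF1AX, 0.31 (0.24 to 0.38) for EIF5B and 0.35 (0.12 to 0.57) for EIF1B.

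**Figure D2:**
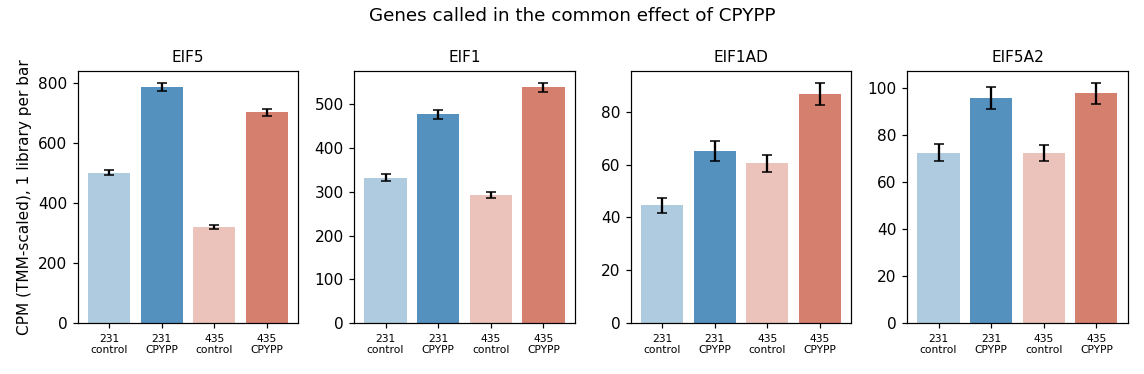
TMM-scaled CPM of EIF5, EIF1, EIF1AD and EIF5A2 in the 4 libraries (blue MDA-MB-231, red MDA-MB-435, pale control, dark CPYPP), with 1 library per bar and error bars for the 95% counting interval. In each panel both CPYPP libraries stand above both controls.

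Treatment is repeated only across the 2 lines. Which genes changed on average over both was asked with a fit that used all 4 libraries and a block for the line. This left 1 residual degree of freedom, and the fit does not ask whether the lines changed by the same amount. By edgeR's quasi-likelihood test with Benjamini-Hochberg adjustment over 16748 genes, 4 members passed as higher and none as lower, beside 4.99% and 3.58% of all genes. EIF5 gave a log2 fold change of 0.89 ± 0.14 (SE, adjusted p = 0.00102) and EIF1 gave 0.70 ± 0.13 (adjusted p = 0.0037). EIF1AD gave 0.53 ± 0.13 (adjusted p = 0.0217) and EIF5A2 gave 0.42 ± 0.12 (adjusted p = 0.0487). EIF5 and EIF1 rose more in the melanoma line, by 0.48 (0.43 to 0.54) and 0.36 (0.29 to 0.42) on the log2 scale. At an unadjusted p under 0.05, 7 members passed the fit, a limit for which no share of all genes was computed. DESeq2's Wald test gave 5, adding EIF2S2, beside 2131 of 16801 genes called in either direction. The fit without the line gave 0 members, with 1 at an unadjusted p under 0.05. It called 0 of all 16748 genes, so its 0 is not particular to the members. With library totals for scaling the count was again 4, beside 1930 of 16801 genes called in either direction. EIF4A2 stood in place of EIF5A2, so the EIF5A2 call rests on the scaling.

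EIF5A2 (chr3:170888418-170908644), a paralogue of the hypusine-carrying factor eIF5A that relieves stalled ribosomes, had 72.4 and 95.6 CPM in the breast cancer line and 72.1 and 97.7 CPM in the melanoma line. It began at the same level in both lines and differed by 1.32-fold (1.23 to 1.42) and 1.35-fold (1.27 to 1.45). EIF5A itself did not share this pattern, with 504 and 450 CPM in the breast cancer line and 1192 and 1246 CPM in the melanoma line. EIF6, which keeps the large subunit from joining early, gave log2 fold changes of -0.13 and 0.05.

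The promoters of EIF5 and EIF1 are shown because these genes had the largest rises in the melanoma line and in the common fit. In the breast cancer line EIF1AD, at a log2 fold change of 0.55, stood above EIF1 at 0.52. Each sequence is the 250 bases before the RefSeq start (GRCh38.p14, plus strand), with TGACG, the core of the cAMP response element that ATF and CREB proteins bind, in capitals on either strand. EIF5 spans chr14:103333987-103334236 and EIF1 spans chr17:41688635-41688884.
EIF5: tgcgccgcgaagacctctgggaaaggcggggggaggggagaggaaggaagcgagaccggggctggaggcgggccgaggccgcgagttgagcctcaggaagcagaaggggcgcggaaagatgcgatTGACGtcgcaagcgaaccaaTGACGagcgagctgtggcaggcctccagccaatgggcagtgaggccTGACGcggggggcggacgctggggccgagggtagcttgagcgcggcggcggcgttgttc
EIF1: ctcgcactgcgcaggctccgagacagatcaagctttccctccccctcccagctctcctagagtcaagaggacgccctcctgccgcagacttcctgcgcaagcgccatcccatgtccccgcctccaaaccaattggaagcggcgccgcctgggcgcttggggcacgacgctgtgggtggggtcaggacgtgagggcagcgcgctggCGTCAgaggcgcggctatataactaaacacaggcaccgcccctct

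EIF5 holds 3 of these cores, at -125, -105 and -59 from the start, and EIF1 holds 1, at -45 on the opposite strand. RefSeq windows from 250 bases before to 50 after the start were matched by symbol for 43 of the 51 genes, in 59 windows. TGACG, searched on both strands, was in 23 of the 59 windows (39.0%), beside 21.2% of all 35116 windows of that length. The windows with a match belonged to 19 genes, EIF5, EIF1, EIF1AD and EIF5A2 among them, but also EIF4E, EIF2B1 and EIF3D, which did not rise in both lines. The full element TGACGTCA was in 0 of 59 windows and in 1.65% of all windows. TGACNNNGC, the core of the antioxidant response element, which can overlap TGACG, was in 12 of 59 windows (20.3%) and in 10.9% of all. TGATGNAAN, a composite site of CEBP and ATF proteins, was in 1 window beside 3.13% of all, and the heat shock unit pair GAANNTTC was in 1 beside 5.78%. A match is a run of letters and not a bound site, and binding was not measured.

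eIF2 subunits differed from each other. EIF2S2, the beta subunit, had the highest level of the group per exonic length in every library, with 523 and 622 TPM (counts per length, scaled to a common sum) in the breast cancer line and 669 and 918 TPM in the melanoma line. Its log2 fold change was 0.19 and 0.49. EIF2S1, the alpha subunit that the stress kinases phosphorylate, gave 0.06 in the breast cancer line (307 and 319 CPM) and 0.33 in the melanoma line (185 and 232 CPM). EIF2S3, the gamma subunit that holds GTP and the tRNA, fell by 0.27 on the log2 scale in the breast cancer line and stood at -0.01 in the melanoma line. The lowest level was that of EIF2S3B, a near-identical copy of EIF2S3, with 148, 99, 290 and 235 counts in the order MDA-MB-231 control and CPYPP, MDA-MB-435 control and CPYPP. Scaled by TMM, its log2 fold changes were -0.17 and 0.01, and neither passed. EIF2A and EIF2D, which can bring the initiator tRNA without eIF2, gave -0.02 and 0.25, and -0.19 and -0.05.

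eIF2B was the group with the lowest medians, -0.17 in the breast cancer line and -0.13 in the melanoma line. In the breast cancer line all 5 subunits lay below 0 and 3 passed as lower, namely EIF2B1, EIF2B4 and EIF2B5. Among melanoma libraries EIF2B1 passed as lower, EIF2B3 as higher and 3 did not pass. At any fold, 23.9% of all genes were lower in the breast cancer line, and 23.7% were higher and 27.0% lower in the melanoma line. EIF2B1, the alpha subunit, had 89.3 and 71.4 CPM in the breast cancer line and 120 and 106 CPM in the melanoma line, a fold change of 0.80 (0.74 to 0.86) and 0.89 (0.84 to 0.94). EIF2B4, the delta subunit, had 36.3 and 27.2 CPM in the breast cancer line and 40.3 and 36.8 CPM in the melanoma line. Per exonic length EIF2B1 was the highest subunit in every library, at 81.1 to 137 TPM, but per transcript length EIF2B5, the catalytic epsilon subunit, was the highest at 98.6 to 124 TPM. EIF2B2 was the lowest subunit per transcript length in every library, at 22.2 to 28.2 TPM. The order within this complex therefore depends on the length used.

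The eIF3 scaffold genes leaned upwards in the melanoma line. There all 14 genes had a log2 fold change above 0, 11 passed as higher and none as lower, with a median of 0.18. In that line 23.7% of all genes passed as higher. Of genes with at least 1000 counts in both controls, 46.7% passed as higher and 61.1% lay above 0. The 11 include EIF3L, EIF3C and EIF3CL, whose levels are uncertain. With library totals 10 of the 14 were above 0, 7 passed as higher and 1 as lower. In the breast cancer line the median was 0.05, with 4 higher, 2 lower and 8 that did not pass, beside 21.8% and 23.9% of all genes. EIF3J, a loosely held subunit at the decoding site, had 138 and 145 CPM in the breast cancer line and 89.1 and 133 CPM in the melanoma line. Its fold change was 1.05 (1.00 to 1.11) and 1.49 (1.41 to 1.58), the largest line difference of any member at 0.50 on the log2 scale (0.39 to 0.61). EIF3M, another subunit, passed as lower in the breast cancer line (log2 fold change -0.13) and as higher in the melanoma line (0.25). EIF3K, which pairs with EIF3L in the complex, passed as lower in the breast cancer line at -0.15 and did not pass in the melanoma line at 0.06.

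EIF3CL had the lowest level of the eIF3 genes, with 55 and 52 counts in the breast cancer line and 127 and 165 in the melanoma line. Scaled by TMM, its log2 fold change in the breast cancer line was 0.33, which did not pass. Its fold change in the melanoma line was 1.62 (1.28 to 2.06). It is a near-identical copy of EIF3C. EIF3C had 450 and 417 counts in the breast cancer line and 1015 and 964 in the melanoma line. Scaled by TMM, the log2 fold changes of EIF3C were 0.30 and 0.24, and both passed as higher without a fold limit. Reads could be split between EIF3C and EIF3CL in counting, so the value of either gene is uncertain. EIF3A, the largest subunit, was the highest eIF3 gene per exonic length in the breast cancer line, at 455 and 497 TPM. In the melanoma line it stood at 271 and 320 TPM and EIF3L was the highest, at 316 and 339 TPM. EIF3L shares 41.1% of its exonic bases with another annotated gene on the same strand. EIF3E had the highest level in all libraries once transcript length was used, at 570 to 765 TPM, because its exonic length in the table, 37761 bases, is far above its transcript length of 1543 bases.

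Among the cap, scaffold and helicase genes of eIF4 both medians were 0.08, and with library totals they were 0.05 and -0.02. EIF4A2, a paralogue of the helicase eIF4A1, was the member with the largest fall in the breast cancer line. It had 11675 and 6242 counts there, or 523 and 373 CPM, a fold change of 0.71 (0.69 to 0.73). MDA-MB-435 cells had 13549 and 10066 counts, or 569 and 527 CPM, a fold change of 0.93 (0.90 to 0.95). It passed as lower in both lines without a fold limit. Of the exonic bases of EIF4A2, 10.5% overlap small nucleolar and other small RNA genes that lie inside it.

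EIF4G1, the scaffold that joins the cap to eIF3, had 1121 and 1122 CPM in the breast cancer line and 1147 and 1188 in the melanoma line, where its log2 fold change was 0.05 and passed as higher, but was -0.05 and passed as lower with library totals. EIF4G2, a relative of eIF4G that lacks the eIF4E site, was the highest gene of the group per exonic length in every library, at 622 to 705 TPM, and had log2 fold changes of 0.09 and 0.17. EIF4B, a helicase cofactor, passed as lower in the breast cancer line (-0.09) and as higher in the melanoma line (0.10). With library totals the MDA-MB-435 value of EIF4B was 0.0043. EIF4E2, a cap-binding protein that represses translation, was higher in both lines at 0.26 and 0.16. EIF4A1 had no more than 526 counts in any library. EIF4A1 shares 48.6% of its exonic bases with other genes on its strand and has a pseudogene copy, EIF4A1P10, that took more counts than it in every library, so its level is uncertain.

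EIF4E3, a further cap-binding protein, was seen in 1 line, where its TMM-scaled log2 fold change was 0.16 and did not pass. It had 106 and 89 counts in the breast cancer line and 0 and 0 in the melanoma line, where the floor of 3 counts allows up to 0.126 CPM in the control and 0.157 CPM in the CPYPP library. Against that floor per library it was 37.7-fold higher in MDA-MB-231 control cells and 33.9-fold higher in MDA-MB-231 CPYPP cells, as point values. The counting intervals of these comparisons begin at 30.1-fold and 27.0-fold. EIF4E1B, at 0 counts everywhere, was the other member without reads in the melanoma line.

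The 4E-binding proteins differed between the lines and hardly after CPYPP. EIF4EBP1, the best known target of mTORC1 in this family, had 556 and 439 counts in MDA-MB-231 control and CPYPP cells, or 24.9 and 26.2 CPM. Melanoma cells had 2247 and 1755 counts of it, or 94.4 and 91.8 CPM. The MDA-MB-435 libraries stood well above those of MDA-MB-231, and control and CPYPP levels were close within each line. The fold change with CPYPP was 1.05 (0.93 to 1.19) in the breast cancer line and 0.97 (0.91 to 1.04) in the melanoma line, and did not pass in either. These intervals leave out a fold of 1.5 in either direction as far as counting error goes. With library totals the melanoma value was -0.14 on the log2 scale and passed as lower.

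EIF4EBP2 (chr10:70404145-70428618), its paralogue, showed the reverse order. It had 4225 and 3813 counts in the breast cancer line, or 189 and 228 CPM, and 1886 and 1460 counts in the melanoma line, or 79.3 and 76.4 CPM. It was 1.20-fold (1.15 to 1.26) higher with CPYPP in the breast cancer line and stood at 0.96 (0.90 to 1.03) in the melanoma line, or -0.15 on the log2 scale with library totals, which passed as lower. EIF4EBP2 was the only member tested in both lines whose response in the breast cancer line exceeded that in the melanoma line beyond counting error, with a difference of -0.32 on the log2 scale (-0.44 to -0.20). EIF4ENIF1, which carries eIF4E into the nucleus, had 23.9 and 24.0 CPM in the breast cancer line and 21.1 and 23.8 CPM in the melanoma line and passed in neither. EIF4EBP3 shares 73.4% of its exonic bases with a read-through gene, and its 1 to 3 counts allow no statement.

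EIF4E (chr4:98879276-98929133), the cap-binding protein that they hold, did not pass in either line. It had 2277 and 1720 counts in the breast cancer line, or 102 and 103 CPM, and 2278 and 1777 in the melanoma line, or 95.7 and 93.0 CPM. Its fold change was 1.01 (0.95 to 1.07) and 0.97 (0.91 to 1.03), so that the 4 libraries held nearly the same level. With library totals its log2 fold changes were -0.03 and -0.14, and the second passed as lower.

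**Figure D3:**
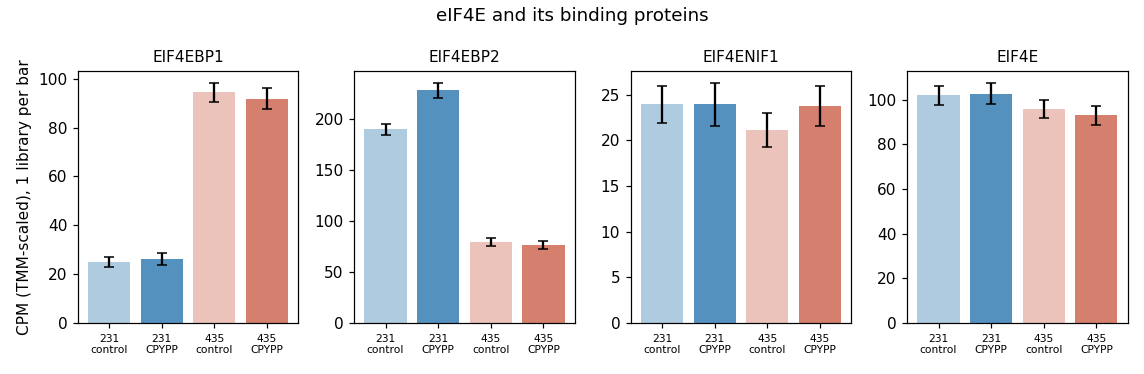
TMM-scaled CPM of EIF4EBP1, EIF4EBP2, EIF4ENIF1 and EIF4E in the 4 libraries (blue MDA-MB-231, red MDA-MB-435, pale control, dark CPYPP), with 1 library per bar and error bars for the 95% counting interval. EIF4EBP1 is high in both MDA-MB-435 libraries, EIF4EBP2 is high in both MDA-MB-231 libraries, and EIF4E is level across the 4.

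Ratios per exonic length put this on 1 scale. EIF4EBP1 to EIF4EBP2 was 1.12 (1.02 to 1.22) in MDA-MB-231 control and 0.98 (0.89 to 1.08) in MDA-MB-231 CPYPP cells. It was 10.1 (9.54 to 10.8) and 10.2 (9.54 to 11.0) in MDA-MB-435 control and CPYPP cells. With transcript lengths the ratio was 0.94 (0.86 to 1.02) and 0.82 (0.74 to 0.90) in the breast cancer line and 8.48 (7.97 to 9.02) and 8.55 (7.97 to 9.17) in the melanoma line, so which gene is higher in the MDA-MB-231 control library depends on the length. Per exonic length EIF4EBP1 made up 52.8% and 49.5% of the summed transcripts of both genes in the breast cancer line and 91.0% and 91.1% in the melanoma line. Per transcript length these shares were 48.4%, 45.0%, 89.4% and 89.5%. The summed level of EIF4EBP1 and EIF4EBP2 relative to EIF4E was 2.61 and 2.91 in the breast cancer line and 6.12 and 6.12 in the melanoma line. With transcript lengths the summed ratio was 0.44, 0.50, 0.97 and 0.97, since EIF4E measures 4971 exonic bases but 898 in its transcript. Whether binding protein transcripts outnumber those of EIF4E therefore depends on the length, while their higher ratio in the melanoma line appears with either. These are transcript levels, and neither protein nor phosphorylation was measured in these libraries.

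Between the control libraries, 8 members were higher in the melanoma line by a fold over 2 and 3 were lower, beside 22.4% and 20.8% of all genes. These are 16.3% and 6.12% of the 49 members tested, both below the background. The higher ones were EIF3L, EIF5A, EIF2A, EIF4A1, EIF3C, EIF4EBP1, EIF3CL and EIF5AL1, and the lower ones EIF2B3, EIF4EBP2 and EIF4E3. EIF4EBP1 had the largest ratio of the higher ones, 3.79 (3.45 to 4.17), and EIF4EBP2 was 2.39-fold (2.26 to 2.52) higher in the breast cancer line. EIF5A, the highest of all members per exonic length in both controls, had 743 TPM in the breast cancer line and 1835 TPM in MDA-MB-435 control cells, a ratio of 2.36 (2.31 to 2.42). EIF5AL1, a near-identical copy of EIF5A, had 212 and 466 counts in the same libraries and was the lowest of its group. Without near-identical copies and genes that share over 40% of their exons, 3 higher members were left, namely EIF5A, EIF2A and EIF4EBP1.

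**Figure D4:**
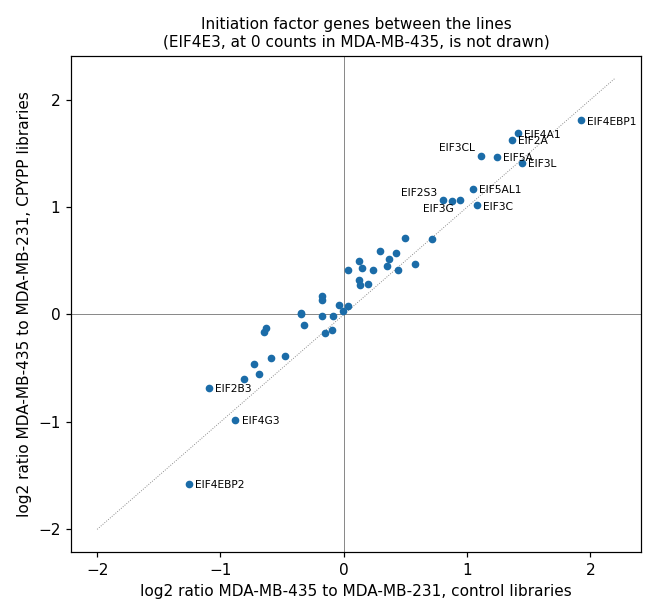
Log2 ratio of MDA-MB-435 to MDA-MB-231 for each initiation factor gene in the control libraries (x axis) and in the CPYPP libraries (y axis), with 1 library per condition and a dotted line of equal values. EIF4E3, at 0 counts in both melanoma libraries, is not drawn. Of the genes drawn, EIF4EBP1 and EIF4EBP2 lie at opposite ends, at 1.92 and -1.26 on the x axis, and most points lie above the dotted line.

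The log2 fold change was higher in MDA-MB-435 than in the breast cancer line for 38 of 48 members (79.2%). For 29 of them the difference exceeded counting error, a limit for which no share of all genes was computed. The median of the difference was 0.17 on the log2 scale. These values use TMM and were not recounted with other scalings. With library totals the medians of the members tested in each line were -0.03 for MDA-MB-231 and 0.06 for MDA-MB-435, beside 0.01 and 0.16. Of all 14262 genes tested in both lines, 51.7% had the higher value in the melanoma line, with medians of -0.04 for MDA-MB-231 and -0.03 for MDA-MB-435. The 4180 genes with 1000 or more counts in both controls also leaned that way, with 63.6% higher in the melanoma line and medians of -0.02 and 0.07. The 37 members with such counts gave 30 higher (81.1%) and medians of -0.01 and 0.11. Abundance thus moved with the line difference, and its part in the members' shift was not tested.

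**Figure D5:**
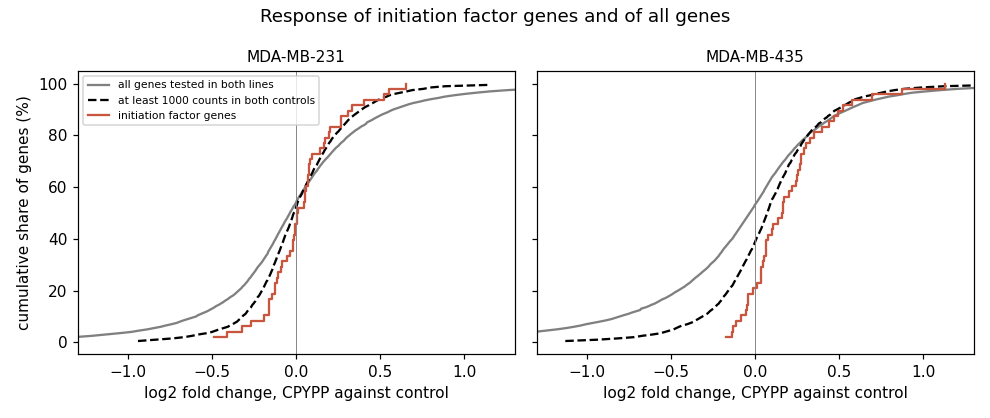
Cumulative share of genes by log2 fold change after CPYPP in each line, for all genes tested in both lines (grey), genes with at least 1000 counts in both controls (black, dashed) and the 48 initiation factor genes (red), with 1 library per condition. In the breast cancer line the red line crosses the others near 0, and in the melanoma line it lies to the right of both over its lower part, with a median of 0.16 beside -0.03 and 0.07.

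A pyrimidine tract at the very start of an mRNA, the TOP motif, places translation of many ribosomal protein and factor mRNAs under mTORC1. Starts with C followed by at least 4 pyrimidines were found in 10 of the 59 RefSeq windows (16.9%), beside 4.07% of all windows. The starts of 6 of these 10 genes are shown, 10 bases before and 10 from the start, with the tract in capitals, to let the length of the tract be compared. They lie at chr22:36529157-36529176 (minus strand), chr11:7987327-7987346, chrX:24054946-24054965, chr11:32583821-32583840, chr3:186783567-186783586 and chr12:53006446-53006465 (plus strand) of GRCh38.p14, in the order given.
EIF3D: cgcatgtttcCTCTTTTCCT
EIF3F: cttccgcctcCTTCTTTCTC
EIF2S3: gatttccttcCTCTTTTggc
EIF3M: gcccagttccCTTTTCCggt
EIF4A2: gcgccgctgtCTTTTCagtc
EIF4B: tcatccgggtCTTTTgcgtt

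The 10 genes with such a start, which also include EIF2A, EIF2D, EIF2S3B and EIF3K, had a median log2 fold change of -0.14 in the breast cancer line, with 0 higher and 6 lower. The 31 tested genes with a window and no such start had a median of 0.05, with 10 higher and 5 lower. In the melanoma line the medians were 0.05 for the 10 genes, with 4 higher and 1 lower, and 0.17 for 30 others, with 20 higher and 1 lower. Of all genes, 21.8% were higher and 23.9% lower at any fold in the breast cancer line, and 23.7% and 27.0% in the melanoma line. The genes that rose in the common fit, EIF5, EIF1, EIF1AD and EIF5A2, were all without such a start in these windows. They belong to the larger of the 2 sets, the 31 genes beside the 10, so nothing is read from this. These values describe mRNA levels and not the use of the mRNAs by ribosomes.

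Some genes that act on the initiation factors passed a fold of 2, a limit at which 3.94% of all genes were higher in the breast cancer line and 2.87% in the melanoma line. Of 8 eIF2 kinases and eIF2 phosphatase subunits or regulators, 1 was higher by a fold over 2 in each line and none lower. This was PPP1R15A, the inducible subunit that directs dephosphorylation of eIF2 alpha, with 3315 and 8752 counts in the breast cancer line and 2614 and 9182 in the melanoma line. Its fold change was 3.52 (3.38 to 3.66) and 4.37 (4.19 to 4.57). Of 19 genes of mTORC1 and its upstream regulators, 2 were higher by this limit in the breast cancer line and 3 in the melanoma line, with 0 lower in both. SESN2, a stress-induced inhibitor of mTORC1 signalling, had 109 and 456 counts in the breast cancer line and 160 and 2719 in the melanoma line. DDIT4, another such inhibitor, had 1186 and 1008 counts in the breast cancer line and 92 and 2066 in the melanoma line. Scaled by TMM, the fold change of DDIT4 was 1.13 (1.04 to 1.23) and 28.0 (22.7 to 34.8). In the breast cancer line it thus passed as higher without a fold limit, although the raw count was lower in the shallower CPYPP library. SESN3, a relative of SESN2, had 42 and 133 counts in the breast cancer line and 15 and 27 in the melanoma line. The fold change of SESN3 was 4.22 (2.96 to 6.12) and 2.24 (1.15 to 4.53). On these few counts the melanoma interval reaches well below 2.

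No gene passed a fold of 2 in either line among 14 other partners of the cap complex and poly(A) tail, 3 recycling and reinitiation factors or 14 elongation and termination factors. Without a fold limit, 21.8% of all genes were higher and 23.9% lower in the breast cancer line, and 23.7% and 27.0% in the melanoma line. The cap and tail partners gave 6 higher and 3 lower in the breast cancer line and 7 higher and 0 lower in the melanoma line. The 3 recycling and reinitiation factors gave 0 higher and 3 lower in the breast cancer line and 0 higher and 1 lower in the melanoma line. Elongation and termination factors gave 4 higher and 6 lower of 14 in the breast cancer line and 6 higher and 2 lower of 13 in the melanoma line. These lists are short, and nothing is read from their counts beside the shares of all genes.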

How the data were processed

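Poly(A) RNA of 4 libraries was analysed, 1 per condition. The authors deposited raw counts per gene, not normalized, together with exonic lengths in bases. The submitters' processing notes name cutadapt 1.9.1, HISAT2 2.2.1, HTSeq 0.6.1 and DESeq2, and the build GRCh37.p13. Of 58254 identifiers shared with GENCODE release 29, however, 58241 overlap its GRCh38 position, and all 51 reported members do, so coordinates are of GRCh38. The strand setting and the handling of reads that match several genes are not given in the sources used here, and shared reads can be lost or split between copies. One line is named in the treatment descriptions of all samples, so the line was taken from each sample's own label.

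Counts were scaled by TMM over the 4 libraries (factors 0.998, 0.974, 1.05 and 0.980) in edgeR 4.0.16 with R 4.3.3. Genes with at least 10 counts in 1 of 2 libraries were tested by edgeR's two-sided binomial test on the reads, with Benjamini-Hochberg adjustment over all genes, at an adjusted p of 0.05 and a fold over 2, 1.5 or any. The common effect was fitted by glmQLFit and glmQLFTest after filterByExpr, with a block for the line (biological coefficient of variation 0.121). DESeq2 1.42.0 was an alternative. TPM used the exonic lengths and, as an alternative, the GENCODE transcript with the longest coding sequence. The rest used Python 3.11.15 (matplotlib 3.10.9, scipy 1.17.1, pandas 2.3.3, numpy 2.4.6). Depths of 17196385 to 22663954 counts put 3 counts at 0.126 to 0.179 CPM. The procedure was tested on simulated data.

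The members and the gene lists were chosen with earlier results of these data known. Values in every library are given for the 4E-binding proteins and EIF4E, and for members past a fold of 1.5 in a line or past the common fit. The highest and lowest members of each complex per length were also meant to be given. Some of them are given only as a range, as a change or for the controls. Of other lists, genes past a fold of 2 are named. Further members named for a difference between lines or within a complex were chosen after their values were seen. Promoters and starts are from RefSeq on GRCh38.p14.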

Additional observations from a re-analysis of the deposited data

Results flagged for a closer look

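For 3 genes the reads moved one way in MDA-MB-231 and the other way in MDA-MB-435, each past the adjusted threshold without a fold limit. EIF4B had a log2 fold change of -0.09 in the breast cancer line and 0.10 in the melanoma line. EIF5A had -0.17 and 0.06, and EIF3M had -0.13 and 0.25. With 1 library per condition, the difference between the lines was not tested beyond counting error. With library totals in place of TMM the melanoma values were 0.0043 for EIF4B, -0.035 for EIF5A, which turns its direction, and 0.16 for EIF3M.

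Rows outside the membership rule also held reads, by their counts in the control library of the breast cancer line, where a count of 0 allows 3. EIF4A1P10, a pseudogene copy of EIF4A1, had 490 counts against 166 for EIF4A1 itself. EIF2S2P4 had 429, EIF1AXP1 424, EIF4EP2 361, EIF3FP3 190, EIF4HP1 181 and EIF5AP4 137, all named as pseudogenes. The read-through row ANKHD1-EIF4EBP3 had 124 and the divergent transcript EIF3J-DT 137. How many of these reads come from the parent genes was not tested.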

How the results depend on the processing

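Replicates could not be paired by number, since the labels carry no replicate numbers and each condition is 1 library, and the only block was the line, in the common fit. For the same reason no replicate could be left out. Alternatives were scaling (library totals, DESeq2 size factors, TMM over the 2 libraries compared), filters on low counts (at least 10 in both libraries, at least 1 in 1), an assumed biological coefficient of variation, a fold limit of 1.5 or none, the removal of uncertain members and, for the common fit, DESeq2's Wald test and no block. The last scaling and the removal, the call at any fold and the transcript lengths were added after seeing the data.

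At a fold over 2 the higher members numbered 0 in the breast cancer line (MDA-MB-231) and 1 in the melanoma line (MDA-MB-435), which became 1 and 3 at a fold of 1.5, and the latter became 0 with an assumed coefficient of 0.2. The higher members at a fold over 1.5, 1 in the breast cancer line and 3 in the melanoma line, became 0 and 0 with a coefficient of 0.2. Without a fold limit, coefficients of 0.1 and 0.2 left 1 and 0 of 14 higher and 0 and 0 of 11 lower members in MDA-MB-231, and 3 and 0 of 30 higher and 0 and 0 of 2 lower in MDA-MB-435, so these counts hold for counting error only. Library totals moved the 2 lower members of MDA-MB-435 to 13 and the median from 0.16 to 0.064. Between the control libraries, the 8 members higher in MDA-MB-435 became 3 without uncertain members, and the 3 higher in MDA-MB-231 became 10 at a fold of 1.5. The common fit's 4 members became 0 without the block, a fit that called 0 of all 16748 genes. Of the log2 fold changes of EIF5, EIF1, EIF1AD, EIF5A2, EIF3CL, EIF4E and its binding proteins, tested without a fold limit under the 3 other scalings, those that changed their side of the threshold were EIF4EBP1 (-0.14), EIF4EBP2 (-0.15) and EIF4E (-0.14) in the melanoma line, which passed as lower with library totals. The cause was not tested.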
